A study of Mus musculus with 71 samples.

Results

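The genes described here are the secreted Wnt ligands, their Frizzled and Lrp receptors, and the proteins that modulate or transmit the signal, in mouse brain lacking a histone methyltransferase. Members were chosen by name: every gene whose platform symbol belonged to the Wnt, Frizzled, R-spondin, secreted Frizzled-related, Dickkopf, Lrp5/Lrp6, Tcf7/Lef1 or Axin families. This gave 50 genes of 18193 on the array, measured by 97 probe sets. Each gene was read from the probe set with its highest mean over the 71 arrays. The 50 were 19 Wnt ligands, 10 Frizzled receptors, the antisense transcript Fzd10os, 2 Lrp co-receptors, 4 R-spondins, 4 secreted Frizzled-related proteins, 5 Dickkopf family members, 3 TCF/LEF factors and 2 Axins.

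Wnt proteins bind a Frizzled receptor together with an Lrp co-receptor on the receiving cell, which spares beta-catenin from the Axin-based destruction complex and lets it act with TCF/LEF factors on target genes. R-spondins strengthen the signal by keeping Frizzled receptors at the cell surface, while secreted Frizzled-related proteins and Dickkopf proteins act outside the cell, mostly to dampen it. In the adult brain the pathway is known for roles in synapses, dendrites and blood vessels, and TCF/LEF factors mark several thalamic and midbrain neuron types.

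The deleted enzymes were GLP, encoded by Ehmt1, and G9a, encoded by Ehmt2, which together place a repressive methyl mark on histone H3. Mutants were Camk2a-Cre; GLPfl/fl or Camk2a-Cre; G9afl/fl mice, in which Cre is driven by a promoter active in postnatal forebrain excitatory neurons and some other forebrain neurons, and the controls were their littermates, of like age and sex. Total RNA came from hippocampus, hypothalamus, striatum and cortex, with 4 mice per group except for 3 G9a hippocampus controls and 2 G9a cortex mice of each genotype. The other 12 arrays held RNA bound to polyribosomes of striatal medium spiny neurons (MSN), pulled down through a ribosomal tag carried by the Drd1-bacTRAP or Drd2-bacTRAP transgene. There, mutants also carried Drd1-Cre or Drd2-Cre over floxed G9a, controls had the tag and the floxed alleles without Cre, and each of the 3 samples per group pooled 5 mice. Mice were 10 to 14 weeks old. In all whole-tissue samples many cell types were mixed, so fewer cells of a type and less RNA per cell cannot be told apart.

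Values are log2 intensities relative to the array median, so 0 is the median probe set of an array, and negative values are dim signals for which a fold is given only as a lower bound, with each dim array set to the median. A gene was tested where enough of the compared arrays lay above 0. A change was called where limma's Benjamini-Hochberg adjusted p was under 0.05 over all genes tested, and every adjusted p below is of that kind. Probe sets differ in brightness for reasons other than abundance, so levels are compared between arrays for a gene and never between genes.

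As a check of the labels, Ehmt1 differed by -0.58 in the GLP mutant hippocampus, -0.46 in striatum and -0.76 in cortex (adjusted p 0.000884, 0.0177 and 6.34e-06, limma). The hypothalamic Ehmt1 difference of -0.16 did not pass (adjusted p 0.711, limma). Ehmt2 differed by -1.76 to -1.02 in the 4 G9a mutant tissues and was called in each. In the neuron pools Ehmt2 differed by -2.04 (Drd1-MSN, adjusted p 0.943, limma) and -0.08 (Drd2-MSN), and neither passed. The Drd2-MSN pools thus do not bear out their labels at this gene and are called the pools labelled mutant. In the Drd1-MSN pools Ehmt1, not deleted there, also differed by -0.87 (adjusted p 0.943, limma). The Ehmt2 difference is thus no firm check of the Drd1-MSN labels either. Drd2 itself, which marks the second neuron type, averaged 6.79 in the Drd2-MSN and 3.96 in the Drd1-MSN control pools. Arrays that stood apart from their group were the second Drd1-MSN mutant pool (highest correlation with any array 0.937), the second G9a hippocampus control (0.988) and the second G9a hypothalamus mutant (0.990).

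Of the 50 members, 20 lay above the array median on average in every group, 18 in some groups and 12 in none. The 12 dim genes were Dkk1, Dkk4, Lrp5, Rspo4, Wnt1, Wnt10b, Wnt16, Wnt2b, Wnt3, Wnt8a, Wnt8b and Wnt9b, and none of them was tested in any mutant comparison. Of the 10 Frizzled receptors 8 were above the median in all 20 groups, and both Axins and 2 of 3 TCF/LEF factors were too. Among the 19 ligands the same held for 3, and 8 were below the median everywhere. These counts describe probe sets, which differ in brightness and in number per gene, and neither rank the families nor show absence of a transcript.

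**Figure D1:**
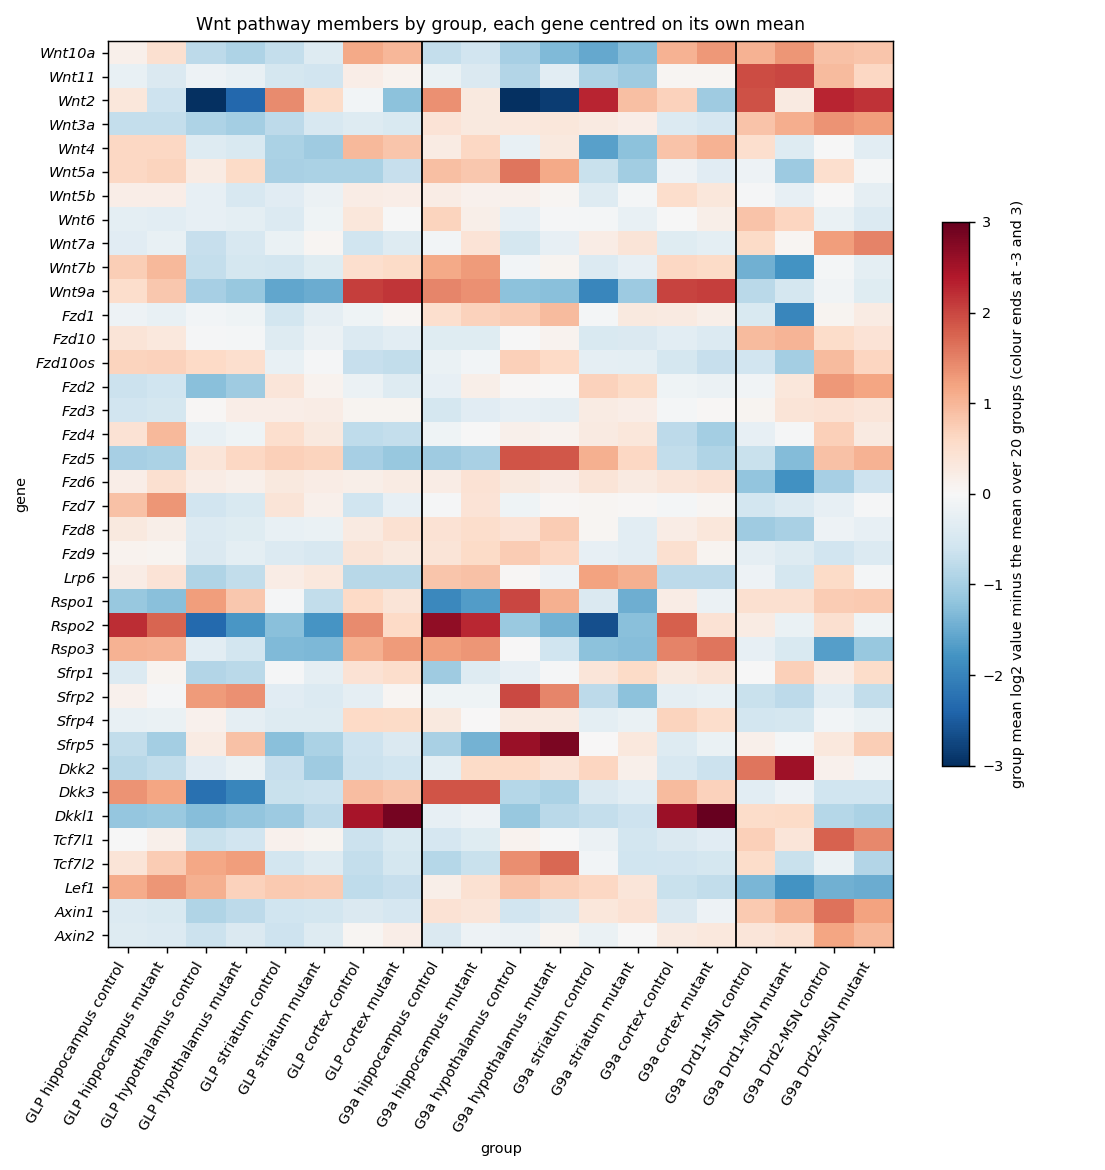
Mean log2 value of each member in each of the 20 groups (columns), minus the gene's own mean over the groups, for the 38 members above the array median in at least 1 group (rows). Red is higher and blue lower than the gene's own mean, and colour stops at -3 and 3. Columns of the same tissue resemble each other across genotypes, Wnt2 is lowest in the hypothalamus, and Dkkl1 and Wnt9a are highest in cortex.

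The promoters of Wnt2 and Rspo1 are shown because these are the members with called decreases, Wnt2 in 3 tissues and Rspo1 in 1. Each line holds the 250 bases upstream of the annotated start, 5′ to 3′ on the gene's strand, from RefSeq on GRCm38.p6, with CG dinucleotides, the sites at which DNA is methylated, in capitals. The Wnt2 stretch is chr6:18030446-18030695 on the minus strand and the Rspo1 stretch is chr4:124986180-124986429 on the plus strand.
Wnt2: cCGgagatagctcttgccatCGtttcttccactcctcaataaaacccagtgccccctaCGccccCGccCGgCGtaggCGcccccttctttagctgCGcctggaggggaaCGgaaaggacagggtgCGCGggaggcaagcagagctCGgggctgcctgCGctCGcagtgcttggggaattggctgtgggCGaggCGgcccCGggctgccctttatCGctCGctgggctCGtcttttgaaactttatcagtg
Rspo1: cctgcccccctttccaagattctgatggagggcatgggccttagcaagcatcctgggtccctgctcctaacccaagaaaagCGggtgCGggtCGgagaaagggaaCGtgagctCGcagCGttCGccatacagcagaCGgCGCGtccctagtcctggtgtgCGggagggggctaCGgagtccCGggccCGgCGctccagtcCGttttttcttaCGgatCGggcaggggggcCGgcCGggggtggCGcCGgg
The Wnt2 stretch holds 20 CG dinucleotides and the Rspo1 stretch 22, and 17.9% and 14.8% of all 32851 promoters in the same table hold as many. A promoter was listed for 32 of the 50 members (39 promoters), whose median was 22 CG against 6 over all promoters. The TCF/LEF core CTTTGA, searched on both strands, was found in 12.8% of the member promoters and in 13.8% of all promoters. Neither printed stretch contains those letters. Sfrp1, the third member with a called change, has no entry in that table.

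The first comparison asked which members changed when an enzyme was deleted. The answer was few. Over the 10 comparisons of mutant with control, 28 to 34 members were tested each time, and 5 of 300 member tests were called (1.67%), against 1761 of 117228 tests over all genes (1.5%). All 5 calls were in G9a mutant tissue: Wnt2 fell in hippocampus, striatum and cortex, Rspo1 fell in hypothalamus and Sfrp1 rose in hippocampus. The share of members called was thus close to that of all genes, and the weight of these data lies in single genes.

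By comparison, 2 of 29 members tested were called in the G9a hippocampus, where 2.72% of all tested genes were called, 2.25% higher and 0.469% lower. The G9a hypothalamus gave 1 of 31 (2.34% of all genes, 1.59% higher and 0.75% lower), the G9a striatum 1 of 29 (3.02%, 1.87% and 1.15%) and the G9a cortex 1 of 31 (0.728%, 0.625% and 0.103%). No member was called by limma in the GLP hippocampus, where 5 members had an unadjusted p under 0.05 and 2.05% of all genes were called (1.73% higher, 0.317% lower). The same held for the GLP hypothalamus (2 members; 1.01%, 0.824% and 0.191%), striatum (1 member; 1.67%, 1.15% and 0.52%) and cortex (0 members; 1.54%, 1.31% and 0.233%). No member was called in the Drd1-MSN (2 members with an unadjusted p under 0.05) or Drd2-MSN pools (0 members), where 0.0249% and 0.0165% of all genes were called, all of them higher (0% lower). On simulated data the test recovered 96% of genes changed by 1 log2 unit in the GLP hippocampus and 85% in the G9a cortex, but 11% in the Drd1-MSN pools. Only genes with a control mean above log2 1 were changed there, so these shares do not cover dimmer members. Wnt2 was among those dimmer members in both tissues. The median difference of the tested members lay between -0.16 and 0.12 in the 10 comparisons, and that of all tested genes between -0.09 and 0.04.

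**Figure D2:**
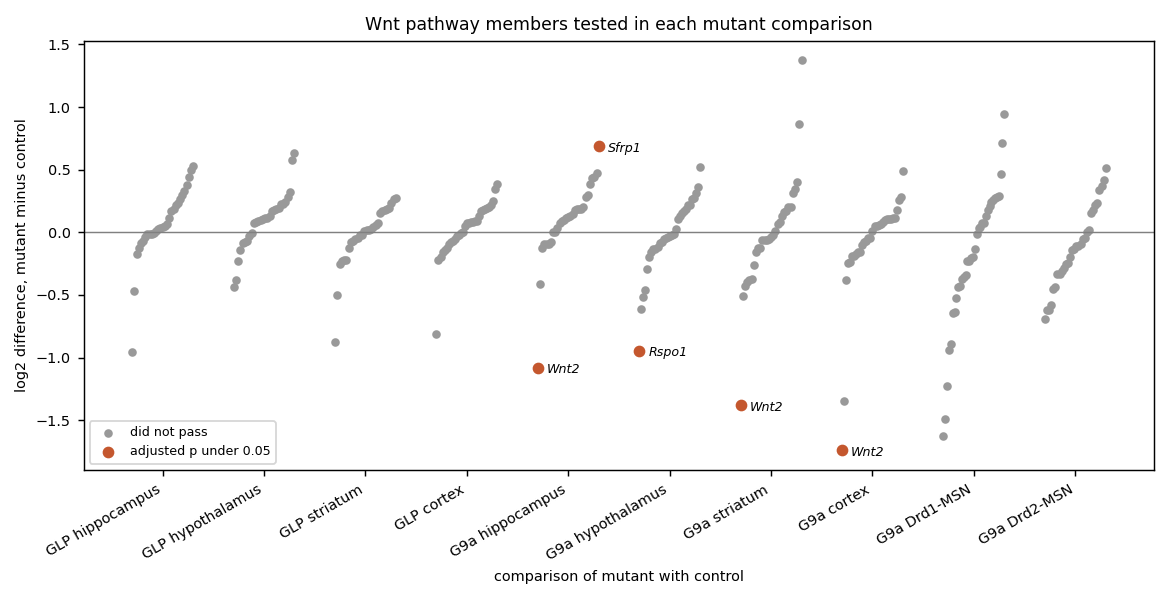
Log2 difference, mutant minus control, of every member tested in each of the 10 comparisons, 1 point per member, sorted within a comparison. The 5 called members are named in orange: Wnt2 at -1.08, -1.38 and -1.74, Rspo1 at -0.95 and Sfrp1 at 0.69. The Drd1-MSN comparison has uncalled members with differences as large.

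Wnt2, a ligand, fell most. It was read by 1 probe set. In the G9a striatum it read 2.54, 2.34, 2.44 and 2.37 in the 4 controls and 0.66, 1.12, 1.22 and 1.17 in the 4 mutants. The groups were far apart, at 2.42 ± 0.09 against 1.04 ± 0.26 (SD, n = 4 each), so the mutants had 38.4% of the control signal. The fall of 1.38 (SE 0.29, adjusted p 0.00147, limma) kept its call without each of the 8 arrays and with same-numbered mice as a block (adjusted p 0.00696).

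Cortex and hippocampus moved the same way with less support. In the G9a cortex Wnt2 read 0.63 and 1.03 in the 2 controls and -0.70 and -1.13 in the 2 mutants, a fall of 1.74 (SE 0.41, adjusted p 0.0144, limma), or at least 1.77-fold. Both mutants were below the median, so Wnt2 passed the filter there through its 2 controls alone. In the G9a hippocampus the 3 controls read 1.69, 1.60 and 1.26 and the 4 mutants 0.34, 0.12, 0.43 and 0.85, a fall of 1.08 (SE 0.31, adjusted p 0.0398, limma) to 47.2% of control. In both tissues every mutant lay below every control. In the same cortex arrays striatum markers averaged 3.73 to 4.01 in controls and 3.42 to 3.60 in mutants, meningeal and fibroblast markers 0.82 to 1.58 and 1.95 to 2.00, and choroid plexus markers -0.93 to -0.72 and -0.71 to -0.02. Their part in the cortical Wnt2 value was not tested. The cortex call was lost without any 1 of its 4 arrays (differences of -1.95 to -1.53) and the hippocampus call without mutant 1, 2 or 3 or control 1 or 2 (-1.08 to -0.98). With same-numbered mice as a block the adjusted p of Wnt2 was 0.0501 in cortex and 0.0641 in hippocampus.

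In the GLP line Wnt2 was lower in the same 3 tissues and passed in none. In the GLP hippocampus the controls read 0.90, 0.23, 0.66 and 0.14 and the mutants -0.70, -0.56, -0.56 and -0.09, a difference of -0.96 (SE 0.29, adjusted p 0.0716, limma). Every mutant was below the median, so Wnt2 passed the filter there through its controls alone. In the GLP striatum the controls read 1.84, 1.12, 1.77 and 1.54 and the mutants 0.99, 0.71, 0.35 and 0.70, a difference of -0.88 (SE 0.29, adjusted p 0.142, limma). In the GLP cortex, too dim for the filter, controls read 0.77, -0.42, 0.33 and -0.42 and mutants -1.44, -0.84, -1.55 and -0.47. In these 3 tissues of the GLP line, too, no mutant reached any control. Wnt2 was called there under single other settings: with quantile normalization (-1.03, adjusted p 0.0313) or the hippocampus groups fitted alone (adjusted p 0.0274), with values below the median set to it in striatum (adjusted p 8.27e-05), and with no filter in cortex (-1.14, adjusted p 0.0221). That floor changed no striatal Wnt2 value of the GLP line, but it set dim arrays of other tissues to 0. Its small adjusted p is thus not stronger striatal evidence.

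Whether the enzymes differed was tested directly. The Wnt2 change on GLP loss minus that on G9a loss was 0.13 in hippocampus (95% interval -0.72 to 0.98), 0.50 in striatum (-0.31 to 1.32) and 0.60 in cortex (-0.40 to 1.60), with adjusted p of 1.00, 0.863 and 1.00 (limma). Each interval includes 0 and is wide beside the G9a falls, so a difference between the enzymes was not detectable with these arrays. No member was called in any of the 4 tests of GLP against G9a change, with 30 to 33 members tested and 0 to 2 at an unadjusted p under 0.05 by limma. Of all genes 0.157%, 0.00831%, 0.00842% and 0.0168% were called in hippocampus, hypothalamus, striatum and cortex. Those with such a p were Sfrp2 and Wnt5a in hypothalamus and Rspo2 and Tcf7l1 in striatum, and all had adjusted p of 0.350 or more.

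The hypothalamus differed from the other regions. Wnt2 there was far below the array median, at -3.43 to -2.20 in the 8 controls and -3.28 to -1.40 in the 8 mutants, and it was not tested by itself. A moderated F test of the change across the 4 regions was called for Wnt2 in both lines, with changes spread over 2.00 in the GLP line (adjusted p 0.00356, limma) and 1.93 in the G9a line (adjusted p 0.0319, limma). Wnt2 was the only member called of 34 and 35 tested, where 134 of 12415 (1.08%) and 174 of 12684 genes (1.37%) were called. The F tests use those dim hypothalamic values: with values below the median set to it, the GLP spread was 0.88 and its call was lost (adjusted p 0.0596), while the G9a spread was 1.38 (adjusted p 4.94e-05). Such a floor gives every hypothalamic array the same value and so removes spread from the fit. The smaller G9a adjusted p is thus not stronger support. The G9a call was lost without any 1 of 7 of the 27 arrays, 4 of them from hypothalamus, at adjusted p of up to 0.180.

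In the neuron pools Wnt2 was bright. In Drd1-MSN the 3 controls read 2.20, 2.14 and 1.80 and the 3 pools labelled mutant 1.5, -1.67 and 1.44, a difference of -1.62 (SE 0.66, adjusted p 0.943, limma). The second mutant pool stood apart, and without it the difference was -0.58. In Drd2-MSN the controls read 2.33, 2.22 and 2.73 and the pools labelled mutant 2.65, 1.85 and 2.46, which overlap (difference -0.11, 95% interval -1.55 to 1.33). The Drd1-MSN change minus the Drd2-MSN change was -1.52 with an interval of -3.56 to 0.53.

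Over all 10 comparisons Wnt2 was lower in 8 and its arrays did not overlap in 7. The share of tested genes whose arrays did not overlap was 6.98% in GLP hippocampus, 5.82% in GLP striatum, 9.99% in GLP cortex, 12.4% in G9a hippocampus, 11.4% in G9a striatum, 45.7% in G9a cortex and 6.69% in Drd1-MSN. The 10 comparisons use separate arrays but may not be independent: the labels do not say whether regions share mice, and same-numbered arrays of different regions deviated together (correlation over 0.1) in 59 of 82 pairs. The F tests did not model such a link, which almost all GLP-line pairs showed.

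Markers of other tissue were set beside the striatal fall. The mean of 10 cortex markers was 3.99 to 4.38 in the 4 G9a mutant striata and 3.02, 3.03, 4.16 and 2.95 in the 4 controls. The third control, within the mutants' range for cortex markers, read 2.44 for Wnt2. The 10 striatum markers averaged 6.59 to 6.68 in controls and 6.35 to 6.57 in mutants, without overlap, and Wnt2 was highest in striatum among the regions. The part of cortical tissue, or of less striatal tissue, in the Wnt2 value was not tested. Choroid plexus markers (18 genes) overlapped, with controls between -0.78 and 3.23 and mutants between 0.74 and 2.75. Endothelial markers, of interest because Wnt signals act on vessels, averaged 2.85 to 2.92 in controls and 2.70 to 2.82 in mutants, without overlap, and 0 of 12 tested were called there (list median -0.12). The part of vessel cells in the Wnt2 value was not tested.

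**Figure D3:**
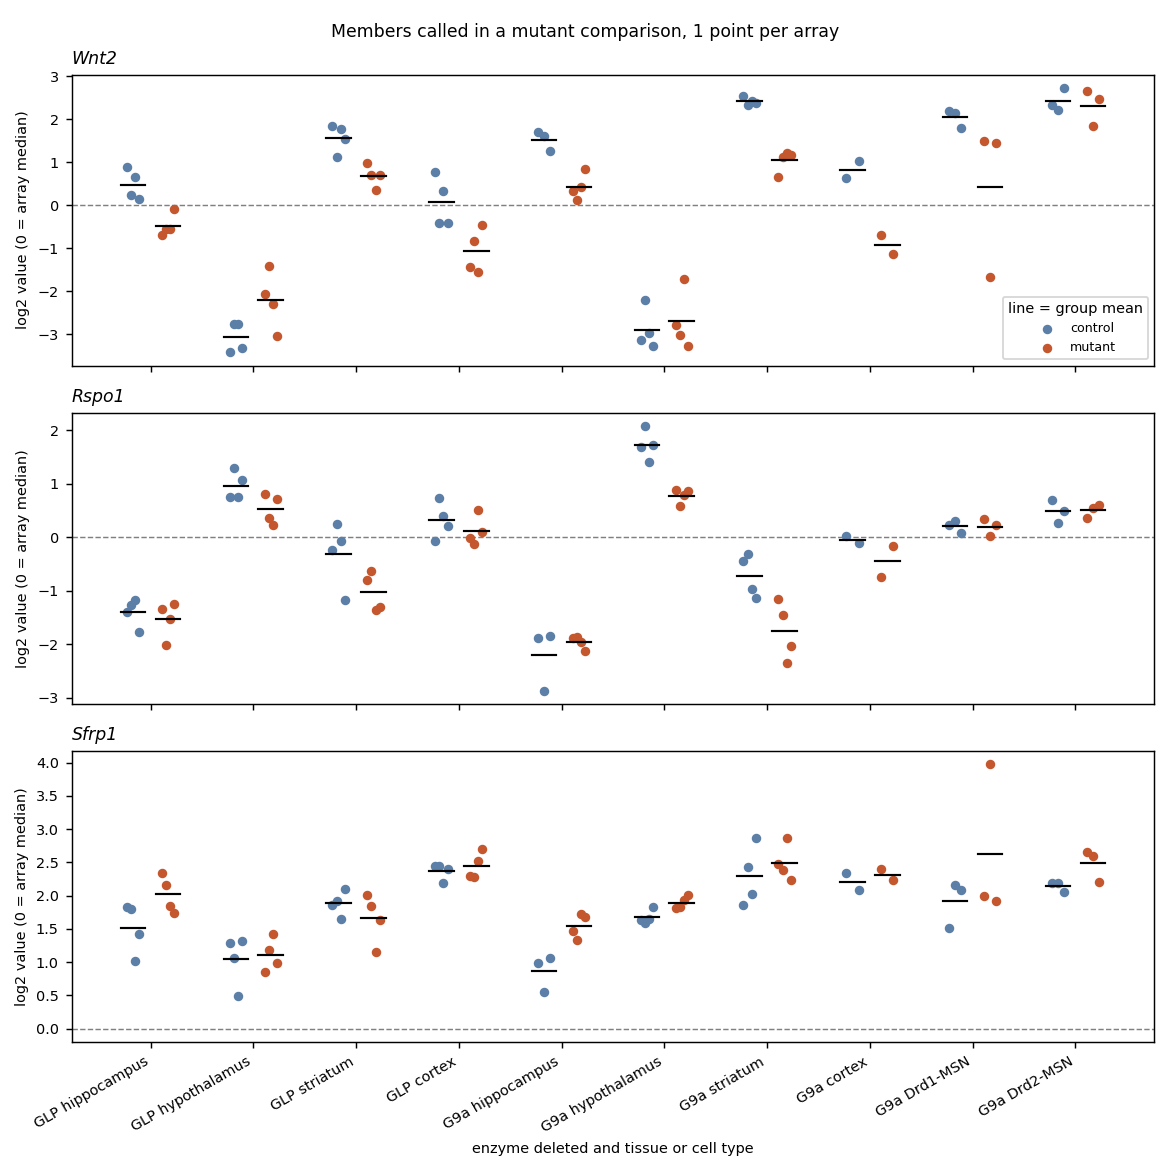
Log2 values of Wnt2, Rspo1 and Sfrp1 on every array (1 point each), controls in blue and mutants in orange, for the 8 tissue and 2 neuron-pool comparisons; black lines are group means and the dashed line is the array median. Wnt2 mutants lie below controls in hippocampus, striatum and cortex of both lines, Rspo1 separates in the G9a hypothalamus and Sfrp1 in the G9a hippocampus.

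Rspo1, a secreted enhancer of Wnt signalling, fell in the G9a hypothalamus. It read 1.69, 2.08, 1.40 and 1.73 in the 4 controls and 0.89, 0.59, 0.78 and 0.86 in the 4 mutants (1.73 ± 0.28 against 0.78 ± 0.14, SD). The groups did not overlap, as for 3.81% of tested genes there, and the mutants had 51.9% of the control signal, a fall of 0.95 (SE 0.25, adjusted p 0.0272, limma). The call was lost without mutant 3, control 2 or control 4 (-0.95 to -0.83, adjusted p 0.0565 to 0.127) and with the hypothalamic groups fitted alone (adjusted p 0.0865). In the GLP hypothalamus the Rspo1 difference was -0.44 (adjusted p 0.613, limma), and the difference between the enzymes was 0.51 with a 95% interval of -0.20 to 1.22.

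The 15 hypothalamus markers did not separate the groups, with G9a controls between 2.87 and 3.33 and mutants between 2.75 and 3.41. Choroid plexus markers did, at -0.80 to -0.67 and -0.42 to -0.21, with 0 of that list called, and their part in the Rspo1 result was not tested. Rspo1 was also lower in the G9a striatum, where it was below the median: -0.44, -0.31, -0.97 and -1.14 in controls and -1.15, -1.45, -2.36 and -2.03 in mutants. It was not tested there under the main filter, and with no filter that difference of -1.03 was called (adjusted p 0.00937). It was lower in 8 of the 10 comparisons, in some by little or from dim values, and it was tested in only 5 of the 10.

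Sfrp1, a secreted protein that binds Wnts, rose in the G9a hippocampus. The 3 controls read 0.98, 0.55 and 1.06 and the 4 mutants 1.47, 1.33, 1.72 and 1.67, a rise of 0.69 (SE 0.20, adjusted p 0.0499, limma) to 161% of control. No control reached a mutant, but the adjusted p sat at the threshold, and the call was lost without any 1 of 6 of the 7 arrays (0.53 to 0.76). The second control, with the lowest Sfrp1 value, stood apart from the other 2 controls over all probe sets, and without it the rise was 0.53 (adjusted p 0.392). It was also lost with no filter (adjusted p 0.0579), a stricter filter (0.0555), quantile normalization (0.57, 0.161), the replicate block (0.64, 0.137) and the 2 groups fitted alone (0.097). The other 4 Sfrp1 probe sets, all below the array median on average, differed by -0.21 to 0.23 there. In the GLP hippocampus Sfrp1 differed by 0.50 (adjusted p 0.253, limma), and it was higher in 9 of the 10 comparisons, in some by little. Without control 3 its GLP hypothalamus difference was -0.11, and without the second mutant pool its Drd1-MSN difference was 0.04.

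Markers of tissue around the hippocampus moved as well. In the G9a hippocampus 3 of 13 tested meningeal and fibroblast markers (Col1a2, Fmod and Lum) and 2 of 9 choroid plexus markers (Cldn1 and Cldn2) rose. The mean of the meningeal list was 1.01 to 1.56 in controls and 1.48 to 2.90 in mutants, and that of the choroid plexus list -0.73 to -0.50 and -0.27 to 0.38. Cortex markers averaged 3.68 to 3.93 in G9a hippocampus controls and 4.13 to 4.35 in mutants, and hippocampus markers 5.21 to 5.24 and 4.97 to 5.17, both without overlap. Among control regions Sfrp1 had its highest mean in cortex and its lowest in hippocampus, where it overlapped hypothalamus. In the GLP hippocampus 15 of 16 tested choroid plexus markers rose, with list means of 0.03 to 1.89 and 2.76 to 3.57. Their part in the Sfrp1 and Wnt2 values was not tested.

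Of the members that passed no test of mutant against control, 4 with low p-values are described, chosen after their values were seen. Tcf7l1, a mostly repressive TCF factor, read 1.84, 1.71, 1.73 and 2.02 in G9a striatum controls and 1.29, 1.33, 1.56 and 1.53 in mutants (-0.40, adjusted p 0.0616, limma). It was called with quantile normalization (adjusted p 0.0214) and with the replicate block (0.0368). Fzd4, the receptor for Norrin and Wnts on vessels, read 2.30, 2.23, 2.13 and 1.99 in GLP hippocampus controls and 2.81, 2.84, 2.61 and 2.52 in mutants (0.53, adjusted p 0.0908, limma). Fzd4 was called with the replicate block (adjusted p 0.0134) and with the 2 groups alone (0.0216), and a second Fzd4 probe set differed by 0.65 there.

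Rspo3, like Rspo1 an enhancer, differed by -0.61 in the G9a hypothalamus (adjusted p 0.0958, limma). It was called with quantile normalization (-0.65, adjusted p 0.0467) and without control 1 (-0.80, 0.0202). Rspo2, its close relative, gave the widest swing. In the G9a striatum the controls read -1.36, -1.27, 2.06 and -1.11 and the mutants 1.14, 1.61, 0.40 and 0.68, a difference of 1.37 (SE 0.48, adjusted p 0.131, limma). Without the third control the difference was 2.20 and was called (adjusted p 0.00048), as was the GLP against G9a difference (-2.70, adjusted p 0.0400). That control is the array with the high cortex markers given above, all 4 mutants had such markers at 3.99 or more, and Rspo2 was bright in cortex controls (3.54 to 4.04). The part of cortical tissue in the striatal Rspo2 values was not tested.

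In the G9a cortex Rspo2 read 4.04 and 3.96 in controls and 2.66 and 2.65 in mutants, a difference of -1.35 (SE 0.68, adjusted p 1.00, limma). The spread behind that SE is pooled over all tissue groups. With the 2 cortex groups fitted alone the same difference was called (adjusted p 3.77e-05), as was the GLP-line cortical difference of -0.81 (adjusted p 0.000847). The G9a fit alone takes the spread from 2 arrays per group, a poor basis. Its small adjusted p is thus not stronger evidence than the pooled fit. One array stood apart in the G9a hypothalamus, the second mutant, for several members: Wnt7b read 3.52, 1.55, 3.14 and 3.67 in mutants and 2.53 to 3.13 in controls. Without it Axin2, Wnt4, Wnt7a and Wnt7b were called higher there, by 0.52 to 0.71, with adjusted p of 0.0028 to 0.0205. The share of all genes called without that array is not given here, so nothing particular to the members is read from these calls.

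Other Wnt pathway genes were read from 4 lists. Drawn up from general knowledge, they held secreted regulators outside the naming rule, co-receptors and planar polarity genes, intracellular transducers and genes widely reported as beta-catenin targets. Of 13 secreted regulators tested in the GLP hippocampus 1 rose, Sostdc1, a Wnt and BMP antagonist also made by choroid plexus, by 2.54 (SE 0.63, adjusted p 0.0132, limma), in the group whose choroid plexus markers rose, where 2.05% of all genes were called. Of 41 transducers tested in the G9a striatum 1 rose and 1 fell, the corepressors Tle2 (0.65, SE 0.17, adjusted p 0.0177, limma) and Tle4 (-0.33, SE 0.08, adjusted p 0.0156, limma), where 3.02% of all genes were called. None of these lists' genes was called in any other mutant comparison. No beta-catenin target was called among the 8 to 12 tested each time, and the differences of Axin2, a member often used as a readout of the pathway, lay between -0.20 and 0.28 and were not called.

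The second comparison asked how the members are laid out across control regions, each region against the mean of the other 3, with GLP-line and G9a-line controls together (6 to 8 arrays per region). Regions differ in most genes, so the share called is high for all genes and members alike. Of 35 members tested, 22 were called in hippocampus (15 higher, 7 lower; 61.8% of all tested genes were called, 38.1% higher and 23.7% lower) and 24 in hypothalamus (9 and 15; 75.5%, 36% and 39.6%). Striatum gave 30 (12 and 18; 64%, 35.1% and 28.9%) and cortex 27 (16 and 11; 67.6%, 26.4% and 41.2%). Cortex had the highest mean for 10 of 34 members, hypothalamus for 9, striatum for 8 and hippocampus for 7. The hypothalamic balance turned with the line, at 8 higher and 18 lower in GLP-line controls alone and 12 and 11 in G9a-line controls alone. Fitted in each line alone, 12 of the 22, 18 of the 24, 20 of the 30 and 17 of the 27 were called in both lines.

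Among the ligands, Wnt2 was highest in striatum (median 2.09, range 1.12 to 2.54, n = 8), then hippocampus (0.90, 0.14 to 1.69, n = 7) and cortex (0.48, -0.42 to 1.03, n = 6), and lowest in hypothalamus (-3.06, -3.43 to -2.20, n = 8). Hippocampus and cortex overlapped, as did hippocampus and striatum, while no hypothalamic array reached any other region (-4.13, SE 0.17, adjusted p 3.03e-27, limma; at least 2.21-fold). Wnt9a was highest in cortex, at 3.32 to 3.66 (n = 6), above the 1.71 to 3.08 of hippocampus, -0.53 to 1.29 of hypothalamus and -2.10 to 0.95 of striatum (2.67, SE 0.30, adjusted p 8.35e-11, limma). Wnt10a had the same top region, at 0.88 to 1.35, with every other array at 0.68 or lower (at least 1.96-fold, adjusted p 2.66e-17, limma).

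Wnt4 was lowest in striatum, at -1.03 to 0.55 against 0.57 or more elsewhere (-1.64, SE 0.13, adjusted p 3.72e-16, limma). Its next region up, hypothalamus, began just above the striatal range. Wnt5a, known for signalling outside beta-catenin, was higher in hypothalamus and hippocampus (1.12 and 0.91) and lower in striatum and cortex (-1.20 and -0.84).

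Of the R-spondins, Rspo1 was highest in hypothalamus, at 0.75 to 2.08 against 0.73 or less elsewhere (2.07, SE 0.15, adjusted p 1.01e-17, limma; at least 2.43-fold), and lowest in hippocampus (-2.87 to -1.17). Rspo2 was at 3.93 to 5.39 in hippocampus and 3.54 to 4.04 in cortex, but -0.41 to 1.36 in hypothalamus and -1.36 to 2.21 in striatum. Rspo3 was high in cortex (2.56 to 3.22) and hippocampus (2.45 to 3.12), intermediate in hypothalamus (1.09 to 2.08) and low in striatum (0.09 to 0.85), where no array reached any other region (-2.03, SE 0.12, adjusted p 3.29e-20, limma). Cortex and hippocampus overlapped for both Rspo2 and Rspo3. Rspo2 was named after its values were seen, since its striatal range overlapped that of hypothalamus.

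Among the Dickkopf and secreted Frizzled-related families, Dkk3, a divergent Dickkopf protein, was highest in hippocampus, at 5.84 to 6.72, followed by cortex at 5.64 to 5.78, striatum at 3.80 to 4.64 and hypothalamus at 2.24 to 4.27 (2.01 for hippocampus, SE 0.11, adjusted p 2.40e-22, limma). Dkkl1, a Dickkopf-like protein, was above the median in cortex alone among the region means, at 1.83 to 2.71. Of the other 23 control arrays it exceeded 0 on 1, the second G9a hippocampus control at 0.84 (3.46 for cortex, SE 0.22, adjusted p 1.36e-18, limma; at least 4.45-fold). Dkkl1 thus passed the filter through its cortex arrays. Sfrp2 was highest in hypothalamus, at 0.71 to 1.91 against -0.07 or lower elsewhere (1.91, SE 0.12, adjusted p 6.23e-20, limma; at least 2.41-fold). No array of another region was above the median, so Sfrp2 passed the filter through hypothalamus alone.

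Sfrp5 was also highest in hypothalamus (2.08), but unevenly. G9a-line controls read 2.98, 2.31, 3.18 and 2.69, and GLP-line controls 0.84, 0.28, 0.67 and -0.05. The mean of the hypothalamus markers differed the same way, at 2.87 to 3.33 and 1.80 to 2.39, so the hypothalamic samples of the lines differed in these markers too. The source of that difference, and its part in Sfrp5, was not tested. Fzd5, a Frizzled receptor, split alike in hypothalamus, at 3.38 to 4.12 in the G9a line and 1.77 to 3.15 in the GLP line.

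**Figure D4:**
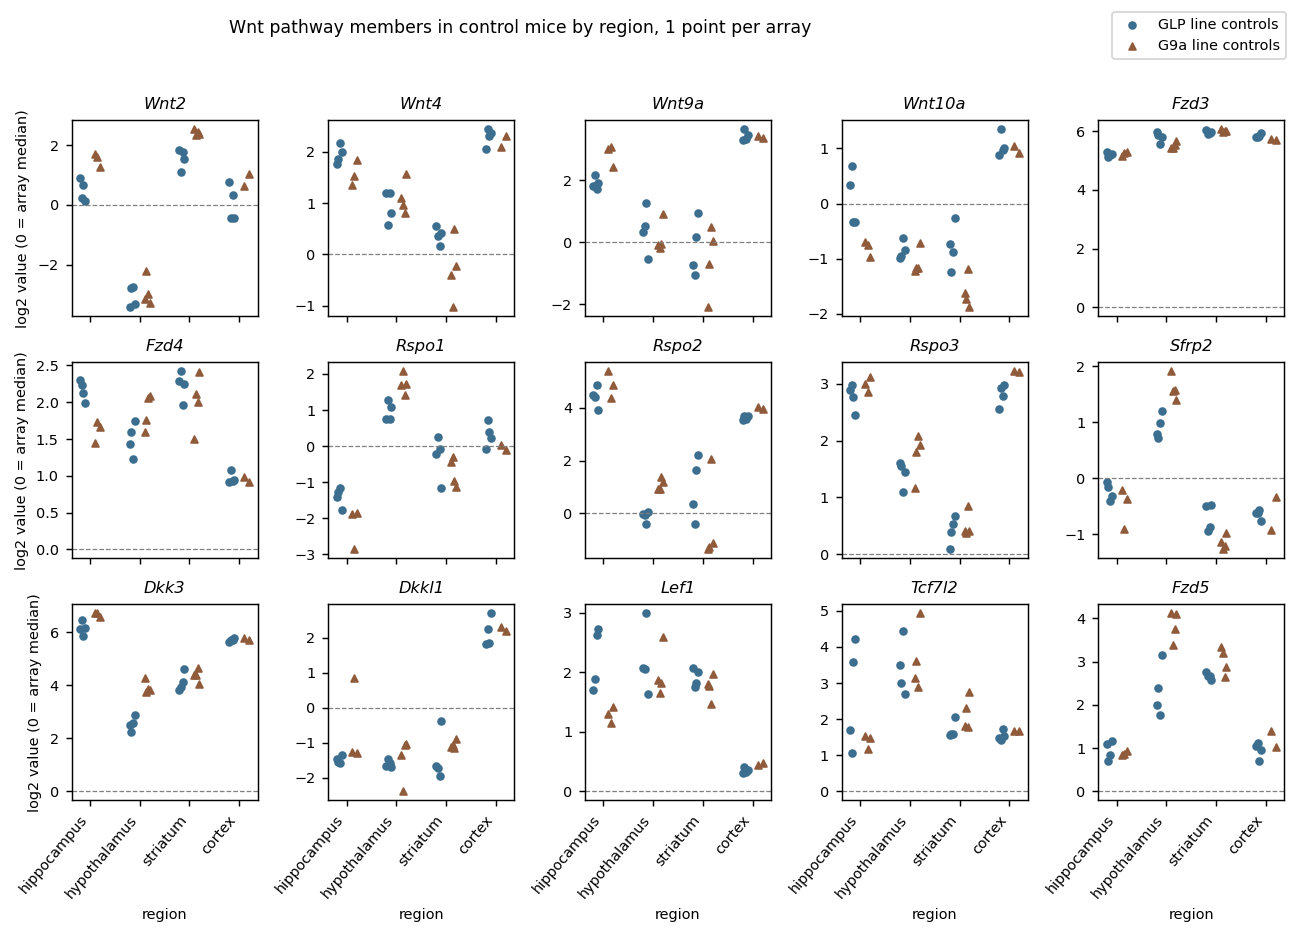
Log2 values of 15 members on each control array by region, with GLP-line controls as circles and G9a-line controls as triangles; the dashed line is the array median and vertical scales differ. Wnt2 falls to about -3 in hypothalamus, Dkkl1, Wnt9a and Wnt10a stand highest in cortex, Rspo1 and Sfrp2 stand highest in hypothalamus, and Fzd3 spans a narrow range.

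Among the receptors, Fzd3, a receptor known for axon guidance, lay between 5.10 and 6.07 on every control tissue array, and was lowest in hippocampus, at 5.10 to 5.29 against 5.43 or more (-0.60, SE 0.04, adjusted p 7.12e-17, limma). A dimmer Fzd3 probe set differed by -2.25 in hippocampus and 2.76 in cortex, so the probe sets of this gene disagree. Fzd4 was lowest in cortex, at 0.91 to 1.07 against 1.23 or more (-0.94, SE 0.11, adjusted p 4.13e-10, limma), a difference its second probe set did not show (0.07). Fzd5 was higher in hypothalamus and striatum (1.47 and 1.14) and lower in hippocampus and cortex (-1.42 and -1.19). Fzd6 and Fzd10 were called in no region.

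Of the factors that carry the signal to DNA, Lef1 was lowest in cortex, at 0.31 to 0.47 against 1.16 or more (-1.49, SE 0.15, adjusted p 2.58e-12, limma). Tcf7l2, an established marker of thalamic neurons named here after its values were seen, was highest in hypothalamus (2.71 to 4.94; 1.68, SE 0.27). Its hippocampal values split, at 1.69, 1.05, 3.57 and 4.21 in the GLP-line controls and 1.17 to 1.53 in the G9a line. The mean of 14 thalamus and habenula markers in those 4 GLP-line arrays was 1.89, 1.43, 2.15 and 2.39, highest in the same pair. It was 1.90 to 3.10 in the GLP-line hypothalamus controls. The part of thalamic tissue in the Tcf7l2 values was not tested.

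Of 41 transducers 23 were higher and 6 lower in hippocampus, and 8 higher and 23 lower in hypothalamus, with list medians of 0.30 and -0.22 beside 0.07 and -0.02 for all genes. Of all genes 61.8% and 75.5% were called there, and nothing particular to the list is read from these counts. Among the secreted regulators Frzb, a Frizzled-related Wnt inhibitor, was higher in hippocampus (2.45) and cortex (1.80) and lower in hypothalamus (-2.04) and striatum (-2.20). Ror1, a Wnt5a receptor, was higher in hippocampus (2.08) and striatum (1.64) and lower in hypothalamus (-1.89) and cortex (-1.82).

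The third comparison set the control neuron pools against each other and against whole striatum. Between control Drd1-MSN and Drd2-MSN pools, 6 of 33 members tested were called, 1 higher and 5 lower in Drd1-MSN, where 15.4% of all tested genes were called (7.7% higher, 7.65% lower). Receptors Fzd5 and Fzd8, the ligand Wnt7b, the scaffold Axin1 and Fzd10os were lower in the Drd1 neurons, and Dkkl1 was higher. The pools of the 2 types did not overlap for 16 of the 33, nor for 41.3% of all tested genes.

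Fzd5 read 1.66, 1.27 and 0.93 in Drd1-MSN and 2.88, 3.22 and 2.38 in Drd2-MSN (-1.54, SE 0.39, adjusted p 0.0217, limma). Wnt7b, a ligand known in brain for vessel and dendrite growth, read 1.36, 1.57 and 1.35 against 2.81, 2.80 and 2.87 (-1.40, SE 0.27, adjusted p 0.00573, limma). The Wnt7b pools of each type lay within a narrow band. Fzd10os read 0.80, 0.44 and 0.44 against 2.05, 1.99 and 2.25 (-1.54, SE 0.28, adjusted p 0.00422, limma). It is transcribed opposite Fzd10, and which strand a probe set reports was not checked here.

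Dkkl1 read 0.17, 0.21 and 0.27 in Drd1-MSN and -1.21, -1.19 and -1.15 in Drd2-MSN (1.40, SE 0.23, adjusted p 0.00204, limma; at least 1.16-fold). Every Drd2-MSN pool was below the median, so Dkkl1 passed the filter through the Drd1-MSN pools alone. Fzd8 differed by -0.92 (SE 0.20, adjusted p 0.0105, limma) and Axin1 by -0.86 (SE 0.26, adjusted p 0.0440, limma). The Axin1 call was lost without any 1 of the 6 pools (adjusted p 0.0541 to 0.137) and the Fzd5 call without any 1 of 4 (0.0533 to 0.0895). With the replicate block the Fzd5 call was lost too (adjusted p 0.0667). Dkkl1 and Fzd8 rest on dim values: with values below the median set to it, their differences were 0.22 and -0.18 and neither was called (adjusted p 0.398 and 0.385). With all probe sets of a gene averaged, Fzd5 (-0.94, adjusted p 0.00834) was called and Axin1 (-0.25) was not. In the test of the mutant change between the neuron types limma called 0 of 35 members tested and 0% of all genes. Of the 35, 2 had an unadjusted p under 0.05, Fzd6 and Sfrp5 (adjusted p 0.969 for both, limma). The Fzd6 difference between changes was -1.02 with a 95% interval of -1.93 to -0.10.

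Pools and whole striatum differ in more than cell type: polyribosome-bound RNA was compared with total RNA, and these cannot be told apart. All genes shifted together, by a median of 0.63 in Drd1-MSN and 0.60 in Drd2-MSN. Of 34 members tested 22 were called for Drd1-MSN (13 higher, 9 lower; 71.9% of all tested genes, 57.8% higher and 14.1% lower) and of 31 tested 16 for Drd2-MSN (13 and 3; 68.3%, 59% and 9.22%). The split depends on scaling: after quantile normalization 18 were called for Drd1-MSN, 5 higher and 13 lower, and 22 for Drd2-MSN, 12 and 10. Set against the median shift, 11 of 34 members lay above it in Drd1-MSN and 14 of 31 in Drd2-MSN.

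Rspo2 stood out in both pool types, at 2.49, 2.39 and 2.46 in Drd1-MSN and 3.07, 2.60 and 2.41 in Drd2-MSN. Whole striatum read -1.36, -1.27, 2.06 and -1.11, so every pool was above all 4 arrays, narrowly for the third, and the group means differed by at least 3.81-fold and 4.52-fold (adjusted p 1.13e-06 and 2.53e-07, limma), or 2.23 and 2.5 above the median shift. Without the third striatal control the Rspo2 differences were 3.69 and 3.94 in place of 2.86 and 3.11. Wnt10a (2.59 and 2.42) and Wnt4 (2.13 and 1.60) were also higher in both, by at least 1.97-fold and 1.75-fold for Wnt10a and at least 3.29-fold and 2.28-fold for Wnt4. Wnt11 read 1.23, 1.04 and 1.28 in Drd1-MSN and -2.10 to -1.45 in striatum (2.89, SE 0.26, adjusted p 6.71e-15, limma; at least 2.27-fold), and Fzd10 was higher by 1.40 there. Every striatal array was below the median for Wnt11 and Wnt10a. Both thus passed the filter through the pools alone, where they could only come out higher. The pools shared striatal arrays as their reference, so the values for the 2 types are given side by side and are not independent.

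Lef1 and Fzd6 were lower in both pool types. Lef1 read 0.89, -0.68 and -0.97 in Drd1-MSN, -0.33, -0.34 and -0.31 in Drd2-MSN and 1.46 to 1.97 in striatum, at least 2.74-fold and 3.36-fold lower. In the Drd2-MSN comparison Lef1 passed the filter through the striatal arrays alone. Fzd6 differed by -1.57 and -1.39 and Fzd5 by -1.72 in Drd1-MSN and -0.18 in Drd2-MSN, the latter not called. In Drd2-MSN the TCF factor Tcf7l1 (1.93), Wnt9a (1.85, at least 2.21-fold) and Axin2 (1.38) were higher.

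**Figure D5:**
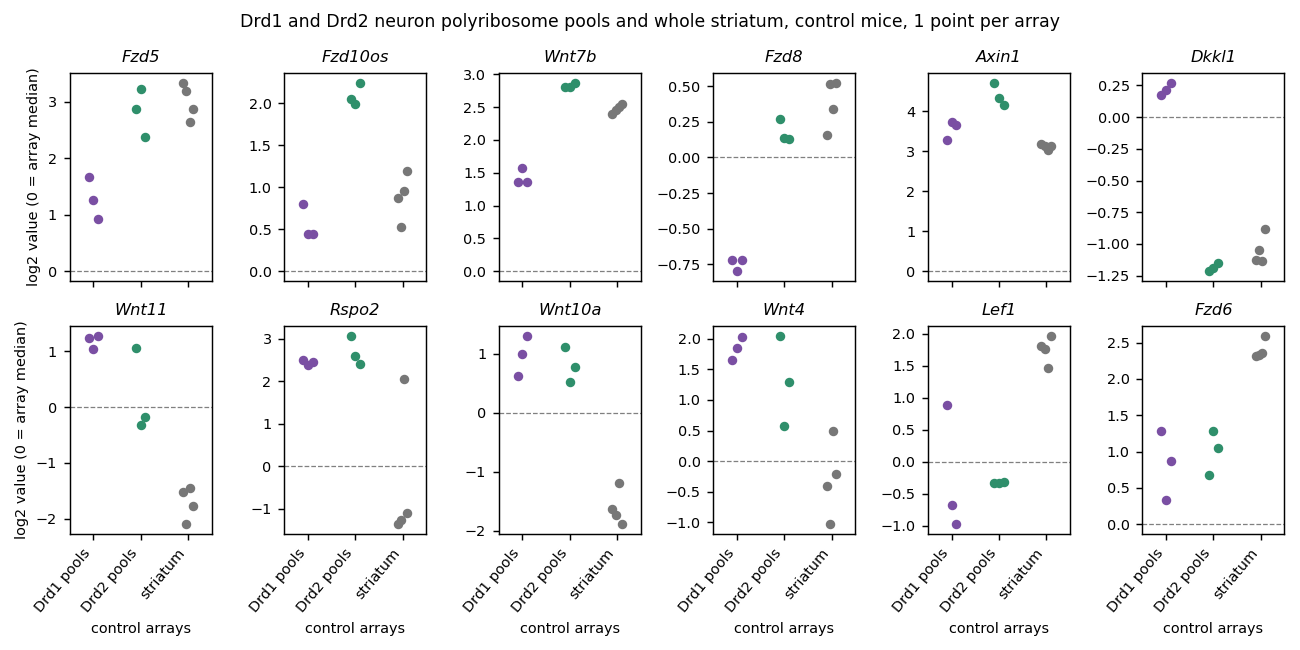
Log2 values of 12 members on each control array of Drd1-MSN pools (purple), Drd2-MSN pools (green) and G9a-line control striatum (grey); vertical scales differ and the dashed line is the array median. In the first 6 panels the pool types do not overlap; in the others at least 1 pool type lies apart from striatum.

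Markers of other cells moved with these differences. Endothelial and mural markers (15 genes) averaged 2.85 to 2.92 in control striatum, 0.20 to 0.30 in Drd1-MSN and 0.58 to 0.78 in Drd2-MSN pools, beside the lower Lef1 and Fzd6. Cortex markers averaged 2.95 to 4.16 in striatum, 4.96 to 5.14 in Drd1-MSN and 4.50 to 5.02 in Drd2-MSN, beside the higher Rspo2, Wnt4, Wnt10a and Wnt9a, all of which were high in cortex. The rise was not particular to cortex markers. Hypothalamus markers averaged -0.78 to -0.62 in striatum, 0.19 to 0.86 in Drd1-MSN and 0.53 to 0.97 in Drd2-MSN. Hippocampus markers averaged 1.36 to 2.06, 2.65 to 3.01 and 2.18 to 2.44. Microglia and meningeal lists were lower in both pool types. Astrocyte markers were 5.55 to 5.76 in striatum and still 4.61 to 4.96 and 4.98 to 5.35 in the pools, and oligodendrocyte markers 6.39 or more in all 3. The part of other cell types in the pool values was not tested.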

How the data were processed

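RNA from 59 mouse brain samples and 12 polyribosome pools was amplified in 2 cycles and hybridised to 71 one-colour Affymetrix arrays of 45101 probe sets. The deposited intensities had been made by the authors with GCRMA, per the submitters' processing notes. As deposited they are linear, with each array's median at 1, and log2 was taken without a floor. Of the probe sets 34945 had 1 gene symbol, 932 had several and 9160 were not in the annotation table. This gave 18193 genes, each read from its brightest probe set. No 2 arrays were duplicates (highest correlation 0.998).

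Models of group means used limma 3.58.1 (R 4.3.3) over the 59 tissue arrays, over the 12 pools, or over all 71 for pools against striatum. Each of 24 comparisons was tested with a moderated, intensity-trended variance (Benjamini-Hochberg, 0.05). Genes needed log2 above 0 on as many compared arrays as the smallest compared group, a filter that keeps dim genes more readily where they rise. P-values measure the spread between arrays, and the number of arrays limits precision.

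Members and lists were chosen with earlier results of these data known. Members called in a mutant comparison, interaction or F test were named, with up to 8 called, non-overlapping members of largest difference in each region or pool comparison, up to 4 called genes of each other list by smallest p, and Ehmt1 and Ehmt2. Alternatives were a floor at the median, no filter, a filter at 1, quantile normalization, the mean of probe sets, a replicate block, the compared groups alone, single lines, and each array left out. Same-numbered mutants and controls deviated together (correlation over 0.1) in 17 of 35 pairs (-0.308 to 0.639), and same-numbered regions in 59 of 82 (-0.204 to 0.482). In the GLP line every region pair was over 0.1 except those at 0.026, 0.098 and -0.204, while many G9a-line pairs were not. The labels do not say whether regions share mice, and the main fits took no pairs. The GLP-line F test and the region comparisons thus treat linked arrays as independent. With the replicate block the region comparisons called 22, 24, 31 and 26 members in hippocampus, hypothalamus, striatum and cortex. In the G9a Drd2-MSN comparison all 3 mutant and control pairs were over 0.1, and the block called 0 members, as without it. On simulated data 96% and 100% of genes changed by 1 and 2 log2 units were recovered in the GLP hippocampus (11660 genes), 85% and 99% in the G9a cortex (11657) and 11% and 69% in the Drd1-MSN pools (12114). The changed genes all had a control mean above log2 1. One G9a hypothalamus control carries different numbers in its title and source name.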

Additional observations from a re-analysis of the deposited data

Results flagged for a closer look

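Of 76 gene and group pairs with 4 arrays examined, 4 had an array whose gap to the nearest other exceeded Dixon's limit for the group's range, where chance gives about 1 in 20. Rspo3 in G9a striatum control 3 read 0.85, above the other 3 at 0.38 to 0.40. Wnt2 in G9a striatum mutant 1 read 0.66, below the other 3 at 1.12 to 1.22. In G9a hypothalamus control 4, Wnt9a read 0.93, above the others at -0.17 to -0.04, and Wnt10a read -0.72, above the others at -1.22 to -1.16. The change of Wnt2 differed between regions by the F test in both lines, with spreads of 2.00 in the GLP line (adjusted p 0.00356, limma) and 1.93 in the G9a line (adjusted p 0.0319, limma). Both tests use hypothalamic values far below the median. The GLP call was lost with values below the median set to it, and that test took linked arrays as independent. The G9a call was lost without certain single arrays (adjusted p up to 0.180, limma).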

How the results depend on the processing

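Of 1184 values recomputed under other settings, 1104 kept direction and side of the threshold, 71 were weaker and 9 reversed. With 1 array left out, 3290 of 3382 kept both, 92 were weaker and 0 reversed. A called gene no longer tested under a setting is not counted. Most of these values belong to region and pool comparisons, so the shares do not describe the calls of mutant against control. The cause of these shifts was not tested. Members called in the GLP hippocampus numbered 1 with quantile normalization, 1 with the replicate block and 2 with the groups alone, in place of 0. The GLP striatum gave 1 with values floored at the median, and the GLP cortex 1 with no filter and 1 with the groups alone. The floor removes the spread between dim arrays, so calls gained under it are not stronger evidence. The G9a hippocampus gave 1 with the filter at 1, with quantile normalization and with the groups alone, and 0 with the replicate block. The G9a hypothalamus gave 2 floored, 2 with quantile normalization and 0 with the groups alone. The G9a striatum gave 2 with no filter, with quantile normalization and with the replicate block. The G9a cortex gave 0 with the filter at 1, 0 with the replicate block and 3 with the groups alone. Drd1-MSN against Drd2-MSN gave 13 with no filter and 2 with probe sets averaged, and Drd2-MSN pools against striatum 28 with no filter. The GLP against G9a change in hypothalamus gave 1 floored. The GLP test across regions gave 0 floored, and the G9a one 3 floored and 2 with no filter. Reversed values were -0.19 for Fzd10os and -0.11 for Lef1 in hippocampus (G9a controls alone), -0.11 for Axin1 and -0.025 for Wnt7a in striatum and -0.035 for Wnt5b in cortex (probe sets averaged), -0.0095 for Axin1 in striatum (GLP controls alone), -0.29 for Rspo1 and -0.45 for Wnt2 in cortex (floored), and -0.090 for Axin1 in Drd1-MSN pools against striatum (quantile). Averaging probe sets moved the share of calls that were higher from 40% to 28% in striatum and from 59.3% to 69.6% in cortex. Leaving out single arrays gave 0 to 3 members in the G9a hippocampus, 0 to 5 in hypothalamus, 1 to 2 in striatum and 0 to 0 in cortex, 0 to 1 for the GLP against G9a change in striatum and 0 to 2 for the G9a test across regions. For counts of members called under other settings, here and above, the share of all genes called is not given. These counts are thus not read as results about the members.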
